A study of Mus musculus and Homo sapiens with 352 samples.

Results

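The interactions described here are the very long CTCF-anchored loops of CH12 cells, those with 800 kb or more between the midpoints of their anchors. The members were chosen by their measured span alone, from ChIA-PET lists of mutant and wild-type cells, and a pair of anchors present in both lists was counted once. This gave 593 interactions of 17954 distinct interactions in all, 400 of them in the mutant list and 291 in the wild-type list. Because span chose them, their spans are a description: the median was 1050 kb, the middle 50% lay between 899 and 1304 kb, and the longest reached 1992 kb, close to the 2 Mb at which the lists stop.

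CH12 is a mouse B cell lymphoma line. The mutant cells carry a CTCF altered at zinc fingers 9 to 11, as the labels place it, and the wild-type cells are the unaltered line. Whether the mutant line is 1 clone is not stated, and the labels do not state whether any unaltered CTCF remains in it. There was 1 ChIA-PET library per genotype, out of 352 samples in the series, so every difference is between a pair of libraries without a replicate check. ChIA-PET pulls down chromatin with an antibody, joins DNA ends that lie together and counts the joined pairs, here called tags. The lists held 82222 tags in the mutant and 74198 tags in the wild type, with 3 tags as the minimum for an interaction.

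The DNA-binding protein CTCF uses a row of zinc fingers to recognise a motif that has a direction. Cohesin is a ring-shaped complex that is thought to reel in chromatin until it meets bound CTCF, so that loops often end at CTCF sites. A loop that spans many such sites has passed over them in at least some cells, and a loop across chromatin with few sites has few places at which to end. Zinc fingers near the end of the CTCF array contact DNA outside the core motif at some sites.

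The limit of 800 kb fell within a continuous range of spans. The 3 members just above it spanned 800.5, 801.4 and 801.6 kb and were all in the mutant list only. The 3 interactions just under it spanned 799.5, 799.2 and 798.7 kb; the first and second of these were wild-type-only and the last was mutant-only.

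The question of the main comparison was which genotype's list the very long loops came from. Of the 593, 302 were mutant-only, being absent from the wild-type list, 98 were in both lists and 193 were wild-type-only. The mutant-only share was 50.9% (95% Wilson interval 46.9 to 54.9), where 35.8% of all interactions were mutant-only. The share in both lists was 16.5% (13.8 to 19.7), where 30.1% of all interactions were in both. The wild-type-only share was 32.5% (28.9 to 36.4), where 34.2% of all interactions were wild-type-only. Very long loops thus differed from the whole mainly by more mutant-only and fewer shared interactions. The nearest class, 400 to 800 kb, was 46.0% (43.8 to 48.2) mutant-only, an interval that overlaps that of the members. It was 25.1% (23.3 to 27.1) shared, an interval that does not. These intervals, like all others given here, cover counting error within these libraries only and treat interactions or tags as independent, although members share anchors.

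**Figure D1:**
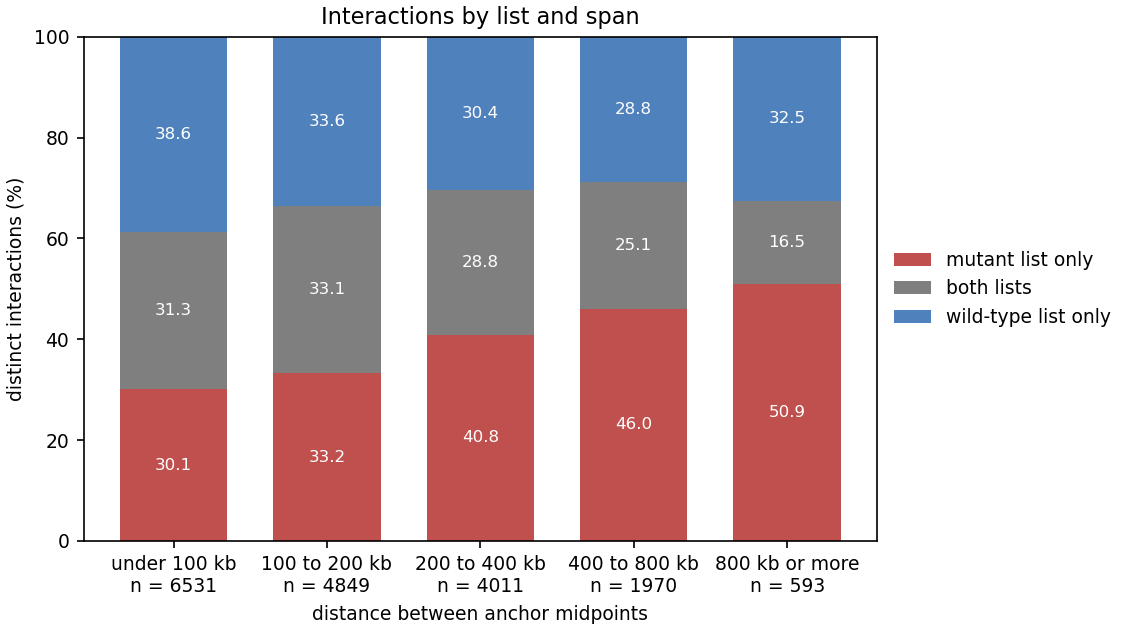
Share of distinct interactions (%, y axis) that were mutant-only, shared by both lists or wild-type-only, for 5 classes of distance between anchor midpoints (x axis, number of interactions under each bar). The mutant-only share was 30.1% under 100 kb, 46.0% at 400 to 800 kb and 50.9% from 800 kb. The share in both lists was lowest from 800 kb, at 16.5%.

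Members made up 3.38% (3.07 to 3.73) of the mutant list and 2.52% (2.25 to 2.83) of the wild-type list. The ratio of mutant to wild-type members was 1.37 (exact 95% interval 1.18 to 1.60). The same ratio over the shorter classes was 0.877 under 100 kb and 0.994 at 100 to 200 kb. It was 1.18 at 200 to 400 kb and 1.32 (1.22 to 1.43) at 400 to 800 kb. The ratio was thus higher in each longer class, as the plot of class shares by span shows. However, the interval at 400 to 800 kb lay within that of the members. Requiring 4 tags left 222 mutant and 141 wild-type members, a ratio of 1.57 (1.27 to 1.96), against 1.04 (1.01 to 1.08) for all other interactions with as many tags. Requiring 5 tags left 131 and 82 members, a ratio of 1.60 (1.20 to 2.13), against 1.07 (1.03 to 1.11). Requiring 10 tags left 18 and 10 members, a ratio of 1.80 (0.788 to 4.36), against 1.19 (1.12 to 1.27), so there the members could not be told from the others at this depth. Tag minimums were not scaled to the larger number of mutant tags, and the ratio of the other interactions was higher at each higher minimum too. Among members the order did not hold in every span bin: at 1400 to 1600 kb, 13 of 42 were mutant-only and 25 were wild-type-only, and this bin was singled out after its values were seen.

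Tags per interaction were fewer in longer classes, and very long loops had the lowest means. The mean was 4.75 tags in mutant members, against 5.64 in mutant interactions at 400 to 800 kb, and 4.35 tags in wild-type members, against 5.39. The medians were closer: mutant members had a median of 4 tags, as did the 400 to 800 kb class, and wild-type members had 3 (3 to 4), against 4. The minimum of 3 tags was the value of 44.5% (39.7 to 49.4) of mutant members, against 30.7% of other mutant interactions. For wild-type members it was 51.5% (45.8 to 57.2), against 32.6% of other wild-type interactions. Members with 10 or more tags were 4.50% of the mutant and 3.44% of the wild-type members, where 18.0% and 15.3% of the other interactions had as many. With so many members at the minimum, 1 tag fewer would remove a large part of them from a list, and an interaction missing from a list may have had 1 or 2 tags.

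Members with more tags were found again in the other list more often. Of the mutant members, 24.5% (20.5 to 28.9) were also in the wild-type list, and of the wild-type members, 33.7% (28.5 to 39.3) were also in the mutant list. Among mutant members with 3 tags, 10.7% (6.94 to 16.1) were found again, against 22.9% (21.6 to 24.4) of other mutant interactions with 3 tags. Among those with 5 to 9 tags it was 37.2% (28.8 to 46.4), against 54.1% (52.5 to 55.7). At 10 or more tags it was 83.3% of 18 members, against 85.6% of the others. In the wild-type library it was 90% (59.6 to 98.2) of 10 members with as many tags, against 81.2% of the others. Wild-type members with 3 tags were found again in 25.3% (19 to 32.8), against 26.9% of the others, and those with 5 to 9 tags in 43.1% (32.3 to 54.6), against 56.4% (54.8 to 57.9). At 4 tags the shares were 24.2% (16.5 to 33.9) of mutant members, against 33.3% of the others, and 33.9% (23.1 to 46.6) of wild-type members, against 38.1%. The interval of the members thus left out the value of the others at 3 and at 5 to 9 tags in the mutant library, and at 5 to 9 tags alone in the wild-type library. Where both anchors of a member were in use in the other list, 43.9% (37.6 to 50.5) of mutant members were matched, against 67.3% of other mutant interactions, and 70.5% (62.5 to 77.5) of wild-type members, against 78.7% of other wild-type interactions.

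The strongest very long loop was in both lists and stood apart. It joined chr13:110019060-110020045 with chr13:111158435-111159606, 1139 kb apart in mm9, and had 76 tags in the mutant and 53 tags in the wild type. Scaled to all listed tags, this was a ratio of mutant to wild type of 1.29 (exact 95% interval 0.899 to 1.87), which includes 1. Only 3 CH12 CTCF peaks lay between its anchors, none at or above the median peak score, against 30 peaks of the B cell list. A single stretch of 653 kb, 57.3% of the span, held no CH12 peak. The CH12 peak at its left anchor was itself low, at score percentile 9.07, against 91.2 at the right anchor. The span is a distance in mm9, and the genome of the CH12 line was not examined here.

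The next strongest shared loop, chr14:77541154-77542114 with chr14:78672973-78674200, had 24 mutant and 17 wild-type tags and passed over 10 CH12 peaks. A loop of 1042 kb on chromosome 10, from chr10:38889376-38892228 to chr10:39931890-39932988, had 15 mutant and 12 wild-type tags and passed over 17 CH12 peaks. One on chromosome 4, from chr4:104824212-104825288 to chr4:105897804-105898771, had 12 mutant and 11 wild-type tags. The tags of these loops differed by less than counting error.

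A loop on chromosome 2 went the other way. It joined chr2:77886039-77888030 with chr2:78754992-78755552, 868 kb apart, with 3 tags in the mutant and 20 in the wild type, a scaled ratio of 0.135 (0.0258 to 0.456). It passed over 2 CH12 peaks, and a stretch without any covered 94.7% of its span. No anchor of either list and no smaller loop lay inside it.

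Over the 98 shared members, the mutant library held 693 tags and the wild-type library 525, a scaled ratio of 1.19 (1.06 to 1.34). All 5400 shared interactions gave 1.04 (1.03 to 1.05). Shared interactions at 400 to 800 kb gave 1.06 (1.01 to 1.11) and those at 200 to 400 kb 1.09 (1.06 to 1.12). Both of these intervals overlap that of the members. Without the strongest loop the ratio was 1.18 (1.04 to 1.33), and without the 5 strongest 1.23 (1.08 to 1.40). For shared members of 1 Mb or more it was 1.09 (0.931 to 1.28), an interval that includes 1. Scaled tags were 2-fold or more higher in the mutant library for 16 shared members, or 16.3%, where 12.6% of all shared interactions were. They were 2-fold or more lower for 4, or 4.08%, where 10.9% were. The exact interval of a single loop lay above 1 for 3 members and below 1 for 1, where 3.94% of all shared interactions lay on each side. Those above 1 were chr4:87013657-87015538 with chr4:87996497-87997564 (18 mutant against 3 wild-type tags), chr13:93520623-93522204 with chr13:94488701-94489753 (17 against 4) and chr12:82083008-82083990 with chr12:82887873-82890599 (15 against 3). With most shared members at under 10 tags in each library, smaller differences were not detectable at this depth.

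**Figure D2:**
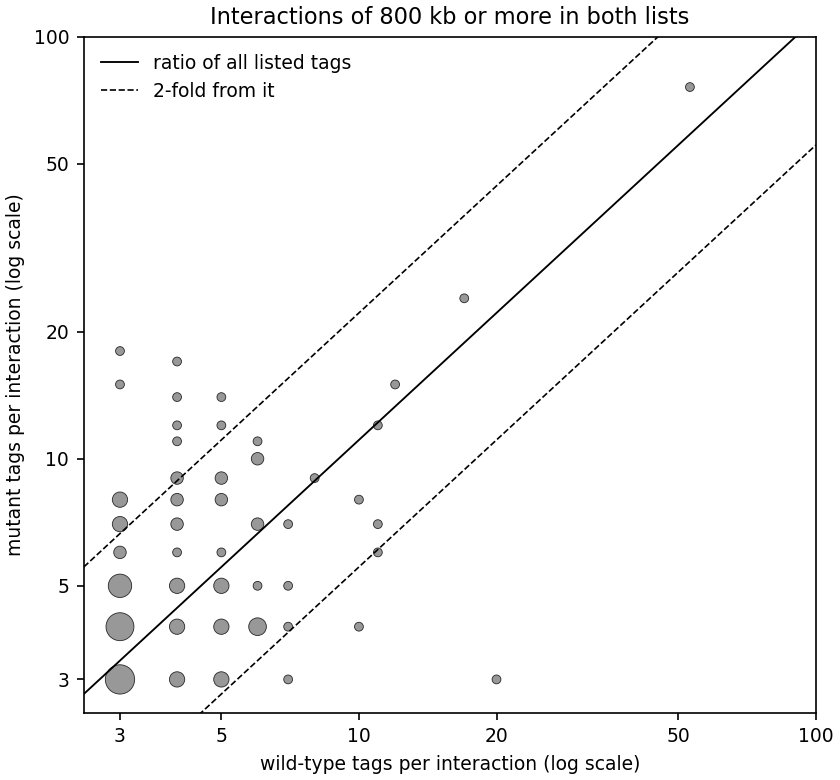
Tags per interaction in the mutant library (y axis) and the wild-type library (x axis), both on log scales, for the 98 interactions of 800 kb or more in both lists; circle area grows with the number of interactions at a point. The solid line is the ratio of all listed tags and the dashed lines lie 2-fold from it; 16 interactions lie at or beyond the upper line and 4 at or beyond the lower one, and the loop with 76 and 53 tags lies far up the solid line.

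Loops in a single list had at most 14 tags. The strongest in the mutant list only joined chr13:111172326-111173431 with chr13:112200745-112201809 with 14 tags. It was followed by chr10:95676291-95677165 with chr10:96775317-96776284 and chr19:59313511-59314759 with chr19:60219979-60220970, with 10 tags each. The strongest in the wild-type list only joined chr5:119223465-119224567 with chr5:120552132-120553514, with 11 tags across 1329 kb. Second came chr7:79544658-79545551 with chr7:80792605-80793665, with 9 tags. The longest members of all, at 1992, 1988 and 1981 kb on chromosomes 10, 12 and 6, were in the mutant list only with 4, 4 and 5 tags.

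The next comparison asked what these loops pass over. A member passed over a median of 10 CTCF peaks of wild-type CH12 cells (95% interval 9 to 10, range 0 to 64), 4 of them at or above the median peak score. It also passed over 15 peaks of the B cell list and 3 anchors of either interaction list (range 0 to 25). At least 1 CH12 peak was passed over by all but 8 members, and at least 1 anchor in use elsewhere by all but 78. The number of peaks passed over was close to that of loops at 400 to 800 kb, whose median was 9, although members spanned about 1050 kb at the median, against 520 kb.

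Peak density between the anchors was therefore low. The median was 0.840 CH12 peaks per 100 kb in members (0.737 to 0.930), against 3.26 under 100 kb, 2.86 at 100 to 200 kb, 2.27 at 200 to 400 kb and 1.70 at 400 to 800 kb. Overlapping members were merged to count each base once, which gave 332 stretches of 393 Mb in all, 15.3% of the length covered by the peak list. These stretches held 1.12 CH12 peaks per 100 kb against 1.54 over that whole length, a ratio of 0.728 (exact Poisson interval 0.706 to 0.749). The stretches ran between inner anchor edges, so the peaks at their outer ends were left out by construction, while the whole length counts every peak. This lowers the ratio, and by how much was not computed. The ratio was 0.763 (0.745 to 0.781) with peaks of B cells, so the lower density was also seen in a peak list from other cells.

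Members that were mutant-only crossed more CTCF-rich chromatin than those that were wild-type-only. The median density was 1.12 CH12 peaks per 100 kb (1.00 to 1.22) for mutant-only members, 0.639 (0.577 to 0.922) for those in both lists and 0.587 (0.514 to 0.689) for wild-type-only members. The intervals of the mutant-only and the wild-type-only members did not overlap. In numbers of peaks passed over, the medians were 12 (11 to 13), 7 (6 to 10) and 7 (6 to 8), at similar median spans of 1043, 1023 and 1082 kb. Counting higher-scored peaks alone (the median score or above) gave medians of 5 for mutant-only and 3 for wild-type-only members, and B cell peaks gave 19 (17 to 21) and 11 (9 to 13). Mutant-only interactions crossed denser stretches in the shorter classes too. The ratio of mutant-only to wild-type-only median density was 1.24 under 100 kb, 1.31 at 100 to 200 kb, 1.38 at 200 to 400 kb, 1.50 at 400 to 800 kb and 1.91 from 800 kb. The ends of the intervals of both medians give a range of 1.45 to 2.38 for the ratio from 800 kb. That range includes the ratio at 400 to 800 kb.

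**Figure D3:**
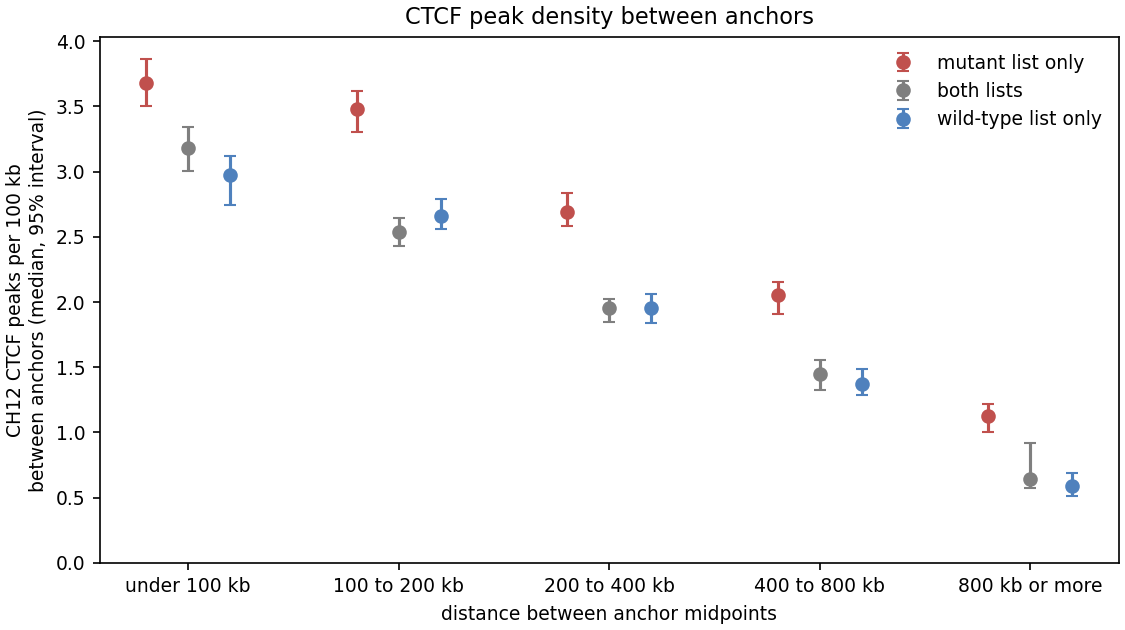
Median number of CH12 CTCF peaks per 100 kb between the anchors (y axis, bars are order-statistic 95% intervals) for 5 classes of distance between anchor midpoints (x axis), for interactions that were mutant-only, shared by both lists or wild-type-only. Density is lower in each longer class, and the mutant-only median lies highest in every class, at 1.12 against 0.587 for wild-type-only interactions from 800 kb.

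Both CTCF peak lists come from cells with unaltered CTCF, so whether the mutant cells still bind the sites passed over was not tested. The anchor lists cannot settle it, since an anchor may be absent from a list for want of tags or of a peak call. An anchor in use in the wild-type list and absent from the mutant list was passed over by 72.8% (67.6 to 77.6) of mutant-only members, 44.9% (35.4 to 54.8) of members in both lists and 50.3% (43.3 to 57.2) of wild-type-only members. An anchor in use in the mutant list alone was passed over by 58.6% (53.0 to 64.0), 33.7% (25.1 to 43.5) and 41.5% (34.7 to 48.5). Mutant-only members thus passed over anchors of both kinds more often than wild-type-only members. The same was seen at 400 to 800 kb, where the shares were 71.8%, 58.0% and 53.2% for wild-type-only anchors and 56.2%, 43.8% and 45.6% for mutant-only anchors, so it is not particular to the very long loops. Mutant-only members also passed over more CH12 peaks, a mean of 13.7 against 8.75 in wild-type-only members. Their mean numbers of wild-type-only anchors passed over were 1.66 and 0.922, and of mutant-only anchors 1.06 and 0.642. Whether the anchors exceeded what the peaks would give was not tested.

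The drop in peak density began at the anchors. In the 500 kb beyond each end the median was 1.90 CH12 peaks per 100 kb, and 480 members, or 80.9% (77.6 to 83.9), had a lower density inside than there. The mean was 3.08 peaks per 100 kb in the last 50 kb outside an anchor, 1.84 in the first 50 kb inside and 0.870 at 350 to 400 kb inside. Outside, at 450 to 500 kb from the anchor, it was 1.91. In the last 50 kb outside, the classes were close: the means were 3.14 for mutant-only members, 2.95 for those in both lists and 3.05 for wild-type-only members. Further out, most bins also had a higher mean for mutant-only than for wild-type-only members. In the same order of classes, the means were 2.58, 2.12 and 2.10 at 50 to 100 kb outside. They were 2.20, 1.78 and 1.63 at 250 to 300 kb outside, but 2.03, 2.26 and 2.04 at 200 to 250 kb. At 350 to 400 kb inside, they were 1.11, 0.714 and 0.580.

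**Figure D4:**
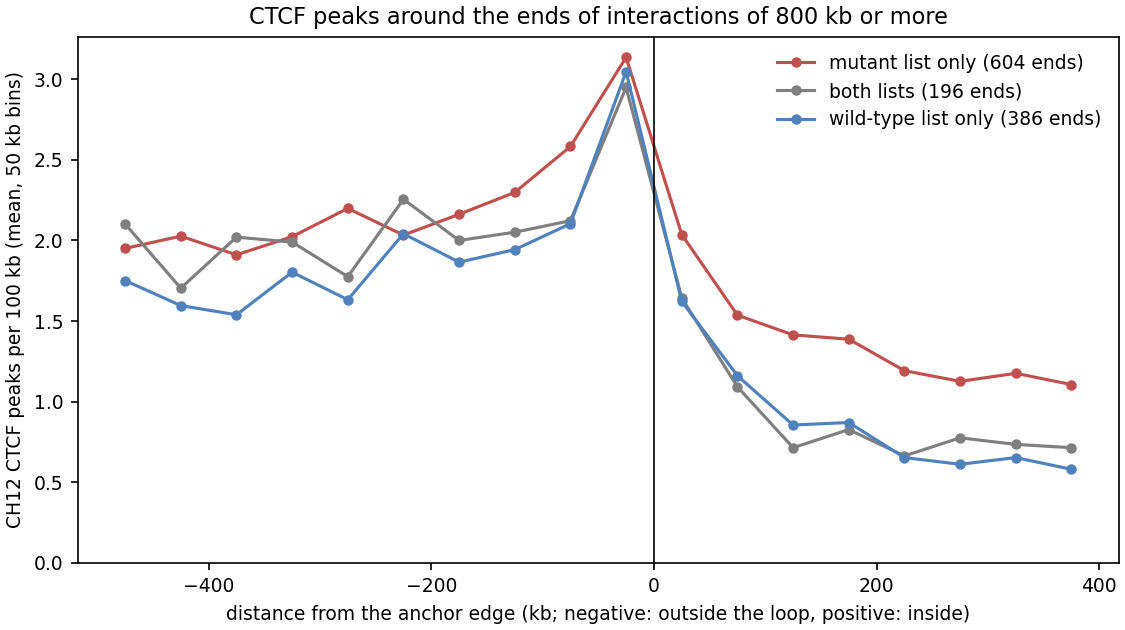
Mean CH12 CTCF peaks per 100 kb (y axis, 50 kb bins) against distance from the anchor edge (x axis, kb; negative outside the loop, positive inside), averaged over both ends of interactions of 800 kb or more, for mutant-only (604 ends), shared (196 ends) and wild-type-only interactions (386 ends). All 3 lines peak just outside the anchor, at 2.95 to 3.14, and the mutant-only line stays highest at every distance inside.

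Many members contained a long gap between CTCF peaks. The longest stretch without a CH12 peak had a median of 411 kb over all members (380 to 436). It was 357 kb (322 to 387) in mutant-only members, 458 kb (388 to 526) in those of both lists and 476 kb (436 to 546) in wild-type-only members. A gap of 500 kb or more was present in 28.1% (23.4 to 33.5), 42.9% (33.5 to 52.7) and 46.6% (39.7 to 53.7). The extremes lay far apart. The loop chr4:81209950-81210924 with chr4:82187657-82188671, in both lists with 9 mutant and 4 wild-type tags, crossed 978 kb without a peak of either CH12 or B cells. Its left anchor itself overlapped no CH12 peak. The mutant-only loop chr2:47641074-47642050 with chr2:48741294-48742255, with 7 tags, crossed 1100.2 kb with no CH12 peak and 1 B cell peak. At the other end, a mutant-only loop with 3 tags, chr8:122702085-122703825 with chr8:123616283-123617385, passed over 64 CH12 peaks and 25 anchors, a density of 7.01 peaks per 100 kb. The next by peaks passed over were also mutant-only, with 46 and 45 peaks, and ended at the same anchor, chr11:20813167-20814670.

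The ends of members were CTCF sites scored slightly lower than other anchors. The members used 942 of 16928 anchors. Of these, 926 overlapped a CH12 peak, whose score lay at a median percentile of 69.8 within its list (67.9 to 71.5). All other anchors lay at 72.7 (72.1 to 73.2), an interval that does not overlap that of the members. The weaker end of a member lay at a median percentile of 58.8 (53.4 to 62.1) in mutant-only members, 56.6 (52.2 to 64.2) in those of both lists and 45.7 (41.7 to 51.8) in wild-type-only members. Wild-type-only members therefore had the lower-scored weaker ends. Of the 942 anchors, 748 ended a single member, 152 ended 2, 35 ended 3, 6 ended 4 and 1 ended 5.

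Members in a single list were more often without either anchor in the other list than shorter interactions were, and about as often had both. Of the mutant-only members, 41.4% (36.0 to 47.0) had both anchors in use in the wild-type list, against 42.2% of shorter mutant-only interactions, 42.1% had 1 and 16.6% (12.8 to 21.2) had none. Shorter mutant-only interactions had none in 11.4% (10.6 to 12.2). Of the wild-type-only members, 21.2% (16.1 to 27.5) had both anchors in use in the mutant list, against 24.1% of shorter wild-type-only interactions, 48.7% had 1 and 30.1% (24.0 to 36.9) had none, against 16.6% with none among the shorter ones. The cells behind the peak calls that define each list's anchors are not stated, so at these ends a missing peak call and a missing loop cannot be told apart.

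A minority of the members missing from a list had a pair there with shifted ends. A pair of the other list lay within 10 kb at both ends for 17 of 302 mutant-only (5.63%) and 16 of 193 wild-type-only members (8.29%). Within 50 kb it was 39 (12.9%, 9.59 to 17.2) and 40 (20.7%, 15.6 to 27.0). The same shares of shorter interactions were not computed.

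Smaller loops lay inside most very long ones. Counting those that share an anchor with the member, 80.0% (75.8 to 83.6) of mutant members held at least 1 smaller mutant loop, and 72.9% (67.5 to 77.6) of wild-type members held at least 1 smaller wild-type loop. Of all 593, 93 held no smaller loop of either list. Mutant members held a mean of 3.86 mutant loops, at most 38, and wild-type members a mean of 2.52 wild-type loops, at most 14. Per 100 kb the means were 0.364 in mutant and 0.237 in wild-type members, against 0.712 and 0.599 for loops at 400 to 800 kb, so nested loops were sparser per length, as the CTCF peaks were. The longest nested loop had a median of 773 kb (726 to 801) among the 500 members that held one, and 230 members, or 38.8%, lay inside another member.

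Some members linked the ends of a row of smaller loops that met anchor to anchor. Such a chain of the same list joined both ends in 61 of 400 mutant members, or 15.3% (12.1 to 19.1), and in 29 of 291 wild-type members, or 9.97% (7.03 to 13.9). A single intermediate anchor was enough in 41 and 18 of these. Among loops at 400 to 800 kb, chains joined 23.8% (21.6 to 26.0) in the mutant and 15.9% (13.8 to 18.2) in the wild type. Most members had no such chain among the loops of 3 or more tags in their own list.

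The anchors of members also made shorter loops in 344 of 671 cases in the mutant list, or 51.3% (47.5 to 55.0), and in 207 of 492 in the wild-type list, or 42.1% (37.8 to 46.5). These mostly ran in the direction of the member. Of the member ends with shorter partners, 67.2% (62.4 to 71.6) in the mutant and 74.4% (68.5 to 79.5) in the wild type had them inward only. Another 14.3% and 16.4% had them outward only, and 18.5% (15 to 22.6) and 9.24% (6.18 to 13.6) had them both ways.

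Very long loops often overlapped each other. Members that overlapped fell into 329 regions, of which 147 held 2 or more members and together 411 of the 593, or 69.3%. The share that random placement would give was not computed. Members that share an anchor and run the same way overlap by construction. Of these 147, 105 held members of both lists, 26 held mutant members alone and 16 held wild-type members alone. Chromosome 13 stood out: its 65 members were 10.9% (8.62 to 13.6) of its 598 interactions, with 39 in each list, ahead of chromosome 16 at 6.90% (4.98 to 9.48). The lowest share was 1.76% (1.23 to 2.52) on chromosome 11, which had the highest CH12 peak density of all chromosomes, 2.72 per 100 kb, against 1.27 on chromosome 13 and 1.26 on chromosome 16. The chromosomes did not follow one order, however: chromosome 3 had a lower density of 1.13 with 2.78% members, and chromosome X the lowest of all, 0.475, with 1.96%, or 3 of 153 interactions.

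The region with most members, chr13:111172326-113055597, held 7. In its left part, neighbouring anchors differed between the lists for some partners and not for others. The anchor at chr13:111172326-111173431 reached chr13:112200745-112201809 with 14 mutant tags and no listed wild-type interaction. The next of these left anchors, chr13:111181401-111183141, reached the same partner with 6 wild-type tags and no listed mutant interaction. However, the first anchor also reached chr13:112203135-112204029, close to that partner, in both lists, with 5 mutant and 3 wild-type tags. Both left anchors also reached chr13:112027287-112028784 in the wild-type list only, with 5 and 6 tags. A region on chromosome 16, chr16:23981981-25350378, was similar. Its left anchors chr16:23981981-23983258 and chr16:23983268-23984920 lie side by side. The right one reached chr16:25064292-25065222 with 8 tags and chr16:25067300-25068471 with 3 tags in the mutant list only, and the left one reached the same 2 partners with 4 tags each in the wild-type list only. The use of these anchors was not divided by genotype throughout, since the right one also reached chr16:25263480-25264564 with 3 tags in the wild-type list only. None of the 6 members of that region was in both lists as an identical pair.

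The other named regions mixed shared and single-list members. In chr11:44399211-45741087, 2 left and 3 right anchors were joined in all 6 combinations. Of these, 4 were shared and 2 mutant-only, with 46 mutant and 23 wild-type tags in all. In chr14:71180197-72916869, the single anchor chr14:71180197-71181297 reached 5 partners to its right at 1513 to 1736 kb. It had 13 mutant and 12 wild-type tags, spread over 2 mutant-only, 1 shared and 2 wild-type-only members, and the remaining member of the region was mutant-only. In chr10:95594425-96808743, 5 members held 25 mutant and 16 wild-type tags, and 1 of them was in both lists with 7 tags each. There, the left anchors differed at chr10:96802137-96803184, which chr10:95594425-95595435 reached with 8 tags in the mutant list only and chr10:95676291-95677165 with 6 tags in the wild-type list only.

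**Figure D5:**
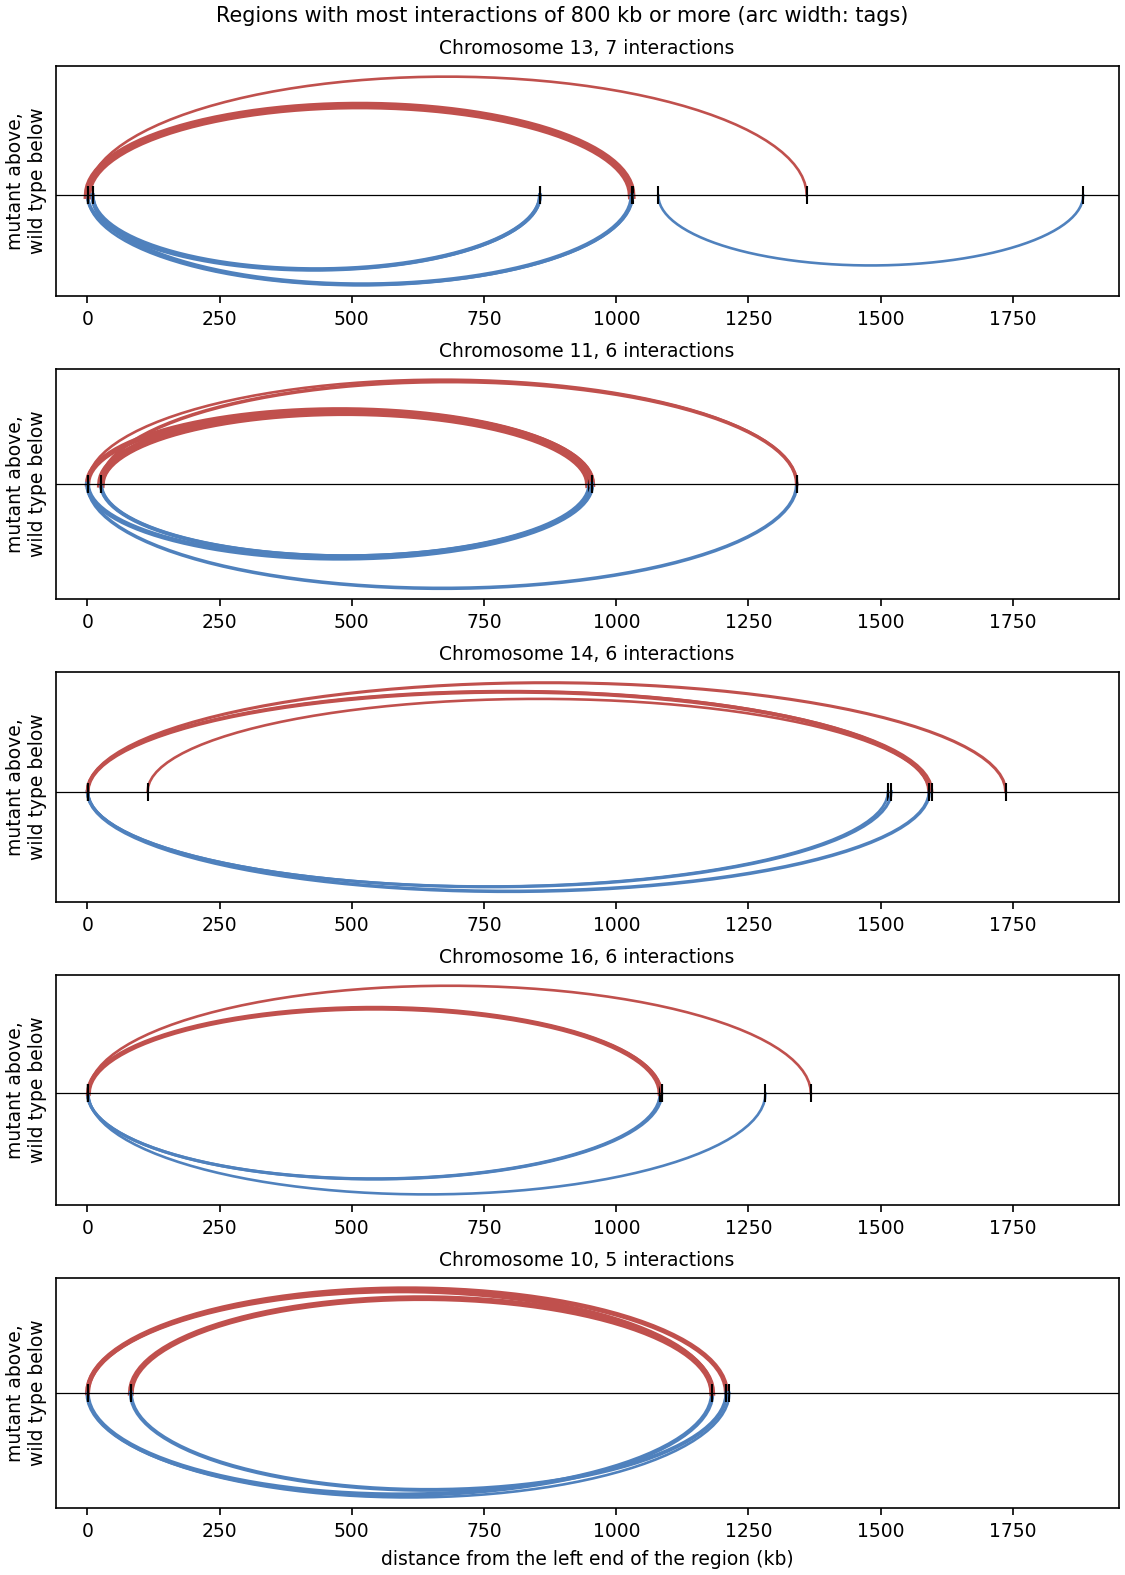
Interactions of 800 kb or more in the 5 regions with most of them; the x axis is distance from the left end of the region (kb), arcs join anchor midpoints, arcs above the line are mutant and below it wild-type interactions, arc width grows with tags and arc height with span. The chromosome 11 region shows its thickest arcs in the mutant, with 46 tags in all against 23, while the left end on chromosome 16 is a pair of neighbouring anchors that meet at this scale.

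Among the 5 anchors with most members, the tags of the libraries lay close at the first and further apart at the others. These tags are given unscaled and without an interval. The first, chr14:71180197-71181297, ended 5 members with 13 mutant and 12 wild-type tags and had 3 partners of any span in each list. The anchor chr7:79544658-79545551 ended 4 members, all in the wild-type list only, with no listed mutant tag against 25 wild-type tags, and it had no partner of any span in the mutant list. The anchor chr7:144669226-144670724, at score percentile 99.9, ended 4 members with 23 mutant and 8 wild-type tags, of which 2 were mutant-only and 2 were in both lists. The anchors chr13:111172326-111173431 and chr7:74774452-74776533 each ended 4 members with 22 mutant and 8 wild-type tags. In each of them 2 members were mutant-only, 1 was in both lists and 1 was wild-type-only.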

How the data were processed

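CTCF ChIA-PET interaction lists of mutant and wild-type CH12 cells and CTCF peak lists of wild-type CH12 and of resting and activated B cells were used; the other samples of the series were not analysed here. The authors deposited each interaction with a count of its tags. The headers state that anchors are CTCF peak calls holding a core motif, and that the lists start at 3 tags and stop at 2 Mb. The CH12 list holds a deposited score per peak, and the B cell list a fold over background as a ratio and a −log10 q-value deposited by the authors; only positions and CH12 score ranks were used. The build is mm9 per the submitters' processing notes, which also list BWA, bedtools 2.25, SAMtools 1.2, Bowtie 1.1.1 and CASAVA 1.8.2 without roles. Not given in the sources used here are the interaction caller, the library depths and any pooling of peak libraries.

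Identical anchor pairs were matched between lists. A peak or anchor was passed over when its midpoint lay between the inner anchor edges. Nested interactions lay within the outer edges, and regions were runs of overlapping members. The length covered by a peak list ran from the first to the last peak of each chromosome. Tag ratios were scaled by all listed tags, with exact binomial 95% intervals; medians have order-statistic intervals. No test between genotypes was made with 1 library each. Tags may include PCR copies, so intervals and floors cover counting error only.

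Named were the 5 interactions with most tags in each class, the 3 longest, the 3 with most and 3 with fewest peaks passed over, the 3 on each side of 800 kb, and the 5 anchors and 5 regions with most members, of which the text gives a part; interactions whose tag interval left out 1 were added. Members and lists were chosen with earlier results of these data known. Alternatives were other tag, span, match, nesting, chain and peak settings. The steps were tested on simulated data. Python 3.11.15 was used with numpy 2.4.6, scipy 1.17.1 and matplotlib 3.10.9. Genes and motif orientation were not analysed here, because both need mm9 annotation or sequence.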

Additional observations from a re-analysis of the deposited data

How the results depend on the processing

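Of 37 alternatives, 22 gave a value within the interval or within 1.5 times the count reported, and 15 moved further. Whether any changed direction was not scored. Those that left out chromosome 13 or the loop with most tags, and the 5 on density by list, were chosen after seeing the data. With anchors matched within 10 kb, 22.1% of members were in both lists, and 1 or both anchors were absent from the other list for 49.7% of mutant-only members (58.6% as reported) and 66.8% of wild-type-only members (78.8%). From 600 kb, 20.0% were in both lists. Counting higher-scored peaks alone gave 4 peaks passed over and a density ratio of 0.622, and B cell peaks gave 15 and 0.763. Counting anchors of the same list gave 2 passed over. Smaller loops strictly between the anchors were held by 51% of mutant and 39.5% of wild-type members, and from 4 tags the shares were 71.6% and 63.1%. Chains of either list joined 24.8% and 19.6%. Each of these changes what is counted, and the cause of the difference was not tested beyond that.

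The mutant-only to wild-type-only density ratio was 1.60 to 1.98 under its 5 alternatives. Most members had 3 or 4 tags, so depth limits how often a loop is found again, and neither list shows loops over 2 Mb or under 3 tags. No paired analysis was possible because each genotype had 1 ChIA-PET library. Motif orientation and genes at anchors were planned and not run.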
